A study of Homo sapiens with 9 samples.

Results

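CD73 is the surface enzyme that makes adenosine outside the cell, and its gene NT5E was examined here with 7 other genes of the adenosine pathway in A549 cells, a human lung cancer cell line, after siRNA against Cyclin K. The 8 genes were NT5E, ENTPD1 and ENPP1 (nucleotide hydrolases of the cell surface), ADA and ADK (enzymes that remove adenosine), and ADORA1, ADORA2A and ADORA2B (adenosine receptors). They were found by their symbols among the 56252 features listed for each library. All 8 were among the 21048 reference genes that were tested, meaning that 3 or more libraries reached an FPKM of 0.1. FPKM is the number of sequenced fragments of a gene, scaled to the gene's length and to the size of the library. NT5E was picked because it fell strongly with Cyclin K siRNA in these same libraries, so its values against scrambled siRNA are given as a description with no test. Its difference between the siRNAs comes from the same siCyclin K libraries and is a description too. The other 7 genes complete the pathway around it.

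The cells were transfected with 50 nM of scrambled siRNA, siCyclin K#1 or siCyclin K#2 with Lipofectamine RNAiMAX, and total RNA was taken after 48 h. There were 3 libraries in each group, 9 in all, and the estimated depth was 31334130 to 33768585 reads per library. The groups differ only in the siRNA, and all come from the same cell line. The design text calls the 3 samples of a group independent but does not say that they were separate cultures, so the p-values below measure the spread between these libraries. Protein, enzyme activity and adenosine itself were not measured in these files. In bulk RNA, fewer cells expressing a gene and less RNA per cell cannot be told apart.

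ATP that leaves a cell is cut to AMP by surface enzymes such as CD39 (ENTPD1) and ENPP1, and CD73 removes the last phosphate to give adenosine. Adenosine then acts on G protein-coupled receptors. A1 receptors lower cyclic AMP through inhibitory G proteins, while A2 receptors raise it through stimulatory ones, and that encoded by ADORA2B also couples to Gq. Adenosine is taken back into the cell by nucleoside transporters, where ADK turns it to AMP and ADA turns it to inosine. In lung tumours CD73 is known for the adenosine it supplies to the tissue around the cancer cells, where adenosine restrains T cells.

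NT5E (ENSG00000135318) lies on the plus strand of GRCh38 at chr6:85449584-85495791, a span of 46208 bases, with 5 annotated transcripts of up to 9 exons. Its promoter is shown because NT5E is the gene on which the results turn, and because genes that answer cyclic AMP are described further on. The sequence is that of RefSeq for GRCh38.p14 at chr6:85449833-85450132, plus strand, from 250 bases before to 50 bases after the start that RefSeq gives. That start lies downstream of the GENCODE start above, so the window falls within the gene span of the files. Capitals mark TGACGTC, the first 7 letters of the cyclic AMP response element, and the 2 matches to the GC box GGGCGG, both read on the opposite strand.
NT5E promoter: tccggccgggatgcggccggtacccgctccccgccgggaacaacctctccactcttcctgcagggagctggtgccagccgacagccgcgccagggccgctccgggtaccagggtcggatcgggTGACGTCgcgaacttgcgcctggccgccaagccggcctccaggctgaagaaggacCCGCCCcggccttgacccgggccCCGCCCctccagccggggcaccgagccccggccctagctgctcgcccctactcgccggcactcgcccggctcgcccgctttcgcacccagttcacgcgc
The window is 75.0% G and C, against a median of 58.7% over 35116 promoters of the same length. Both strands were searched for 7 motifs. TGACGTC, found once in the window, occurs in 3.4% of all promoters, and GGGCGG in 15786 of the 35116. The full element TGACGTCA (1.8% of promoters), which contains TGACGTC, was not among the letters of this window. Nor were TGANTCA (the AP-1 site, 7.7%), CTTTGAT (the TCF site, 2.6%), ACGTG (the core of the hypoxia element, 21.4%) and TATAAA (the TATA box, 11.5%). Of the 8 genes 5 had a single promoter in the RefSeq table (NT5E, ENPP1, ADA, ADORA1 and ADORA2B), and of these TGACGTC was found in that of NT5E. A match in letters is a description of the sequence and not a measured binding site.

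Both siRNAs lowered their target. CCNK, the gene of Cyclin K, was at 6.90, 7.05 and 7.10 FPKM in the scrambled libraries, 0.891, 0.816 and 0.720 under siCyclin K#1, and 0.809, 0.920 and 0.802 under siCyclin K#2. All 6 siCyclin K libraries were below every scrambled library, at 11.53% and 12.03% of the scrambled mean, and the ranges of the siRNAs overlapped. The difference between the siRNAs was -0.06 on the log2 scale (SE 0.10, limma, adjusted p = 0.726). Log2 fold changes here and below are of FPKM + 0.1, which understates the change of genes of low level.

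Markers of the cell line were then checked. KRT18, a keratin of simple epithelia, and VIM, the intermediate filament protein vimentin, were abundant in scrambled libraries, at 83.2 and 270.6 FPKM, and so was NQO1, an antioxidant enzyme high in A549, at 190.3 FPKM. KRT19 and EPCAM, both epithelial genes, were near 0, with means of 0.058 and 0.041 FPKM. PTPRC, which defines leukocytes, had a mean of 0.0044 FPKM in scrambled libraries and was listed at 0 in all siCyclin K libraries. The endothelial markers summed to 0.091 to 0.407 FPKM over the 9 libraries. Other markers were not low or not steady. CD68, of the leukocyte list, had a mean of 30.3 FPKM in scrambled libraries, and ITGAM rose from 0.801 to 2.23 FPKM under siCyclin K#1. The stromal list summed to 5.94 to 6.61 FPKM in scrambled libraries and 20.1 to 22.3 under siCyclin K#1. The erythroid sum was at most 0.143 FPKM in scrambled libraries and 0.875 to 2.05 under siCyclin K#1. These lists are described at the end.

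NT5E was the most abundant of the 8 genes in scrambled cells and was far lower with either siRNA. Its FPKM was 40.15, 38.6 and 39.3 in the scrambled libraries. It was 4.18, 5.08 and 4.42 under siCyclin K#1, and 7.11, 12.2 and 10.5 under siCyclin K#2. The 3 groups did not overlap. The means were 39.4 ± 0.779, 4.56 ± 0.469 and 9.93 ± 2.59 FPKM (SD, n = 3 each), so that 11.6% of the scrambled level was left under siCyclin K#1 and 25.2% under siCyclin K#2. As a description, the log2 fold change was -3.09 under siCyclin K#1 and -2.01 under siCyclin K#2 (SE 0.17 each), and -2.55 for both siRNAs together (SE 0.33).

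Among the 11243 genes whose mean FPKM was 1 or more, NT5E ranked 3 from the largest fall for both siRNAs together, 6 for siCyclin K#1 and 25 for siCyclin K#2. Its level stood at the 96.1th percentile of tested genes in scrambled cells, at the 68.0th under siCyclin K#1 and at the 81.8th under siCyclin K#2. The siRNAs can also be set against each other. NT5E was picked for its fall in these same siCyclin K libraries, so this difference too is a description. NT5E was lower under siCyclin K#1 than under siCyclin K#2 by a log2 difference of -1.08 (SE 0.17). All 3 libraries of siCyclin K#1 were below all 3 of siCyclin K#2. CCNK itself did not show this order.

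**Figure D1:**
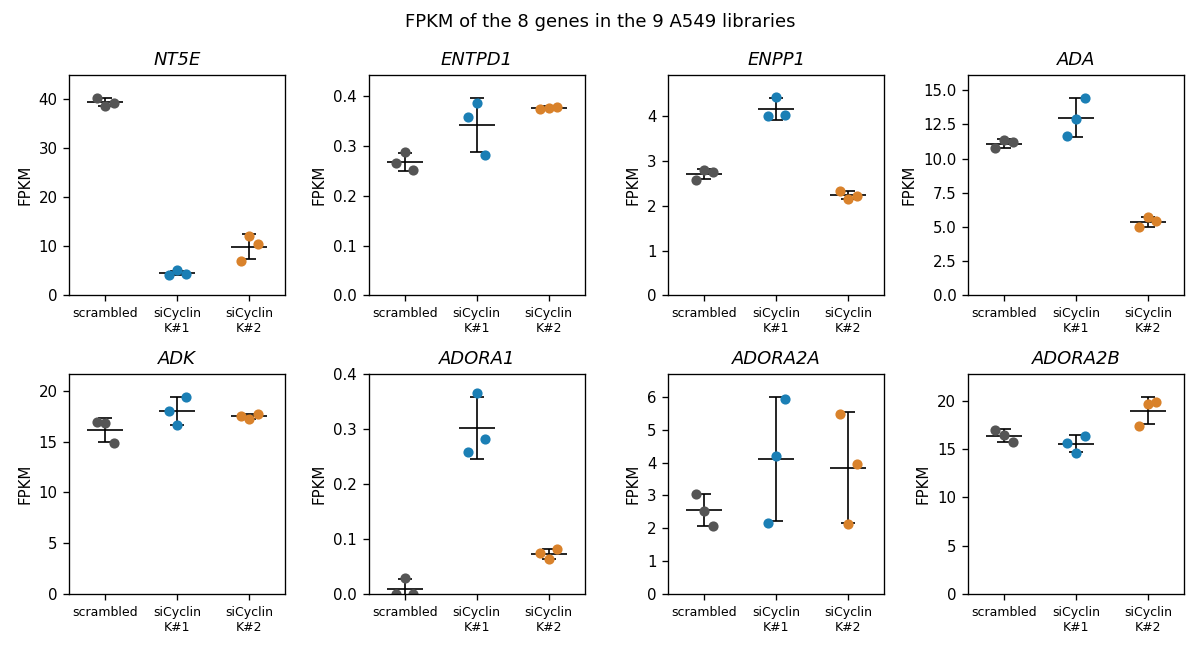
FPKM (vertical axis, from 0) of the 8 genes in the 9 libraries. Points are libraries, horizontal bars the mean and whiskers the SD of 3 libraries. NT5E is near 39 FPKM with scrambled siRNA and at or below 12.2 with either Cyclin K siRNA, ADA is low under siCyclin K#2, and ENPP1 is high under siCyclin K#1.

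Of the enzymes that act before CD73, ENPP1 changed in opposite directions with the siRNAs, and the feature of ENTPD1 passed the test with neither. ENPP1, which cuts ATP to AMP and pyrophosphate, was at 2.58, 2.80 and 2.75 FPKM in scrambled libraries, 4.001, 4.44 and 4.04 under siCyclin K#1, and 2.34, 2.16 and 2.22 under siCyclin K#2. No 2 of these groups overlapped. ENPP1 rose under siCyclin K#1 by 0.60 on the log2 scale (SE 0.07, limma, adjusted p = 0.000141) and fell under siCyclin K#2 by 0.26 (SE 0.07, limma, adjusted p = 0.0188). The siRNAs differed by 0.86 (SE 0.07, limma, adjusted p = 3.9e-05). Over both siRNAs together the opposite changes left a log2 fold change of 0.17 (SE 0.25, limma, adjusted p = 0.669). The fall under siCyclin K#2 was not called without scrambled replicate 2 (adjusted p = 0.0609) or 3 (0.0558), or without siCyclin K#2 replicate 2 (0.0603) or 3 (0.0521), all by limma. The gene lies at chr6:131808016-131895155, on the same chromosome as NT5E.

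ENTPD1, which encodes CD39 and cuts ATP and ADP to AMP, was low in every library. Its feature joins ENTPD1 with CC2D2B and 2 unnamed loci, AL365273.1 and AL365273.2, so the values cannot be assigned to ENTPD1 alone. The feature was at 0.266, 0.288 and 0.252 FPKM in scrambled libraries, 0.358, 0.386 and 0.283 under siCyclin K#1, and 0.374, 0.377 and 0.380 under siCyclin K#2. The scrambled range overlapped that of siCyclin K#1 but not that of siCyclin K#2. The log2 fold change was 0.26 under siCyclin K#1 and 0.37 under siCyclin K#2 (SE 0.16 each, limma, adjusted p = 0.247 and 0.118).

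Other enzymes that can make adenosine outside the cell were scarce. A list of 14 surface and secreted nucleotide hydrolases, which includes NT5E, ENTPD1 and ENPP1, had 13 genes in the files, of which 4 were tested. The remaining tested gene was CD38, an enzyme that degrades NAD, at 0.681 ± 0.221, 1.04 ± 0.203 and 1.01 ± 0.151 FPKM (SD, n = 3), with a log2 fold change of 0.56 for both siRNAs (SE 0.21, limma, adjusted p = 0.0706). ENTPD2, ENTPD3, ENTPD8, ENPP2, ENPP3, ALPL, ALPP, ALPI and ACP3 (prostatic acid phosphatase) had group means of at most 0.0912 FPKM and were not tested. ALPL, the alkaline phosphatase of liver, bone and kidney that can also act on AMP, was listed at 0 in all scrambled libraries and had means of 0.0407 and 0.0204 FPKM with the siRNAs.

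NT5E therefore made up most of the summed level of these hydrolases in scrambled cells and less of it with the siRNAs. Its share of their summed FPKM was 91.8%, 91.6% and 90.8% in scrambled libraries, 41.6%, 45.4% and 44.8% under siCyclin K#1, and 65.1%, 76.3% and 73.8% under siCyclin K#2. The sum itself had means of 43.1, 10.4 and 13.7 FPKM in the 3 groups. These shares follow from the low NT5E by which the gene was picked and are given with no test.

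Of the enzymes that remove adenosine, ADA passed the test with a single siRNA and ADK with neither. ADA, adenosine deaminase, was at 10.8, 11.3 and 11.2 FPKM in scrambled libraries, 11.7, 12.9 and 14.4 under siCyclin K#1, and 4.97, 5.70 and 5.45 under siCyclin K#2. The siCyclin K#2 libraries held 456, 540 and 495 reads of ADA against 1037, 1029 and 1038 in scrambled libraries. ADA fell under siCyclin K#2 by 1.04 on the log2 scale (SE 0.08, limma, adjusted p = 2e-05), to 48.4% of the scrambled mean. Under siCyclin K#1 all 3 libraries were above the scrambled range, but the log2 fold change of 0.22 did not pass the test (SE 0.08, limma, adjusted p = 0.0562). Without siCyclin K#1 replicate 1, the lowest of its group, the change was 0.30 and the adjusted p by limma 0.0149. The siRNAs differed by 1.26 (SE 0.08, limma, adjusted p = 1.1e-05). ADA lies on the minus strand at chr20:44619522-44652233.

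ADK, adenosine kinase, had much the same level in all libraries. It was at 16.9, 16.8 and 14.8 FPKM in scrambled libraries, 18.0, 16.6 and 19.3 under siCyclin K#1, and 17.5, 17.2 and 17.7 under siCyclin K#2. Its feature at chr10:74151185-74709303 also holds MRPL35P3, a pseudogene of a mitochondrial ribosomal protein. The log2 fold change was 0.15 under siCyclin K#1 and 0.12 under siCyclin K#2 (SE 0.07 each, limma, adjusted p = 0.0999 and 0.233). Leaving out siCyclin K#1 replicate 2 brought the first to 0.21 with an adjusted p of 0.0369 by limma. The ratio of NT5E to the sum of ADA and ADK, all in FPKM, was 1.44 ± 0.0683 in scrambled libraries, 0.148 ± 0.0216 under siCyclin K#1 and 0.433 ± 0.109 under siCyclin K#2 (SD, n = 3), a description that again follows from NT5E.

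ADORA2B was the main adenosine receptor transcript in these cells. This low-affinity receptor was at 17.0, 16.4 and 15.7 FPKM in scrambled libraries, 15.7, 14.6 and 16.4 under siCyclin K#1, and 17.4, 19.7 and 19.8 under siCyclin K#2. The siCyclin K#1 range overlapped the scrambled one, and all siCyclin K#2 libraries were above both. ADORA2B rose under siCyclin K#2 by 0.21 on the log2 scale (SE 0.06, limma, adjusted p = 0.0347). Under siCyclin K#1 the log2 fold change was -0.07 (SE 0.06, limma, adjusted p = 0.398). The siRNAs differed by -0.28 (SE 0.06, limma, adjusted p = 0.0106). The rise under siCyclin K#2 was not called with median-ratio rescaling (adjusted p = 0.105), quantile normalization (0.101), a replicate block (0.0682) or limma-voom (0.281). It was also lost without scrambled replicate 2 (adjusted p = 0.0772 by limma) or 3 (0.109), or without siCyclin K#2 replicate 2 (0.108) or 3 (0.111).

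ADORA2A, the high-affinity receptor known for its action on T cells, varied widely between libraries of each siCyclin K group. It was at 3.05, 2.53 and 2.08 FPKM in scrambled libraries, 2.18, 4.21 and 5.93 under siCyclin K#1, and 5.47, 2.12 and 3.95 under siCyclin K#2. All groups overlapped. The log2 fold change was 0.57 under siCyclin K#1 and 0.49 under siCyclin K#2 (SE 0.41 each, limma, adjusted p = 0.3 and 0.407), so a change of this size was not detectable over the spread of 3 libraries.

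ADORA1, the receptor that couples to inhibitory G proteins, was close to the limit of detection. It had 0, 4 and 0 reads in scrambled libraries, 35, 48 and 39 under siCyclin K#1, and 10, 9 and 11 under siCyclin K#2. In FPKM these were 0, 0.030 and 0, then 0.258, 0.366 and 0.282, and then 0.0742, 0.0647 and 0.0824. The 3 groups did not overlap, and the scrambled level was at the 1.6th percentile of tested genes. Scaled to depth, the 122 reads under siCyclin K#1 were 30.9 times the 4 reads of the scrambled libraries (exact binomial 95% interval 11.8 to 115), and the 30 reads under siCyclin K#2 were 7.56 times (2.67 to 29.6). These intervals cover counting error only.

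ADORA1 reached 0.1 FPKM, the limit for being tested, only in the siCyclin K#1 libraries. It was thus tested because it was high in that group, and its calls are a description. In the fit over all genes ADORA1 rose under siCyclin K#1 by 1.87 on the log2 scale (SE 0.24, limma, adjusted p = 0.000237). Its log2 fold change under siCyclin K#2 was 0.67 (SE 0.24, limma, adjusted p = 0.0624). The siRNAs differed by 1.20 (SE 0.24, limma, adjusted p = 0.00558). For both siRNAs together the rise was 1.27 (SE 0.40, limma, adjusted p = 0.039). That call was lost without any one of the scrambled or siCyclin K#1 libraries, with adjusted p by limma of 0.0621 to 0.118. It was also lost under a replicate block (0.0794) and with a pseudocount of 0.5 (0.0743) or 1 (0.0854).

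Summed over the 3 receptors the level was 17.8 to 23.9 FPKM in the 9 libraries. ADORA2B took 84.8% to 88.3% of this sum in scrambled libraries, 72.5% to 86.5% under siCyclin K#1 and 75.8% to 90.0% under siCyclin K#2. ADORA1 took at most 1.90% in any library. The fourth receptor of the family, ADORA3, was searched for but not found by its symbol among the reference genes, so no value is given.

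The calls for the 8 genes can be set beside those for all 21048 tested genes. ADORA1 was tested only because of its level under siCyclin K#1, so counts that hold it, here and below, are a description. For both siRNAs together 1 of the 7 genes other than NT5E passed an adjusted p of 0.05 (ADORA1, higher), where 28.6% of all genes did. The count was 2 of 7 under siCyclin K#1 (ENPP1 and ADORA1, higher), against 44.8% of all genes, and 3 of 7 under siCyclin K#2 (ADORA2B higher, ADA and ENPP1 lower), against 34.9%. The first of these counts are below the share of all genes, and that for siCyclin K#2 is near it. Between the siRNAs 5 of 8 differed (ENPP1, ADA and ADORA1 higher and NT5E and ADORA2B lower under siCyclin K#1), against 29.4% of all genes. NT5E was picked for its fall in these same libraries, so its place in this count is also a description.

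By the rule of the study's methods, more than a 3-fold change together with an unadjusted p below 0.01, none of the 7 genes was called for both siRNAs together, where 1 had an unadjusted p under 0.05 (ADORA1) and 2.29% of all genes were called. Under siCyclin K#1 ADORA1 alone was called (4.67% of all genes), a gene tested only because it was high in that group. None of the 7 was called under siCyclin K#2 (1.94%), where 4 had an unadjusted p under 0.05. Between the siRNAs none of the 8 passed this rule (1.53% of all genes), although 5 had an unadjusted p under 0.05. Any gene with an adjusted p under 0.05 also has an unadjusted p under 0.05. At least 28.6% (both siRNAs), 34.9% (siCyclin K#2) and 29.4% (between the siRNAs) of all genes therefore met that threshold too.

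**Figure D2:**
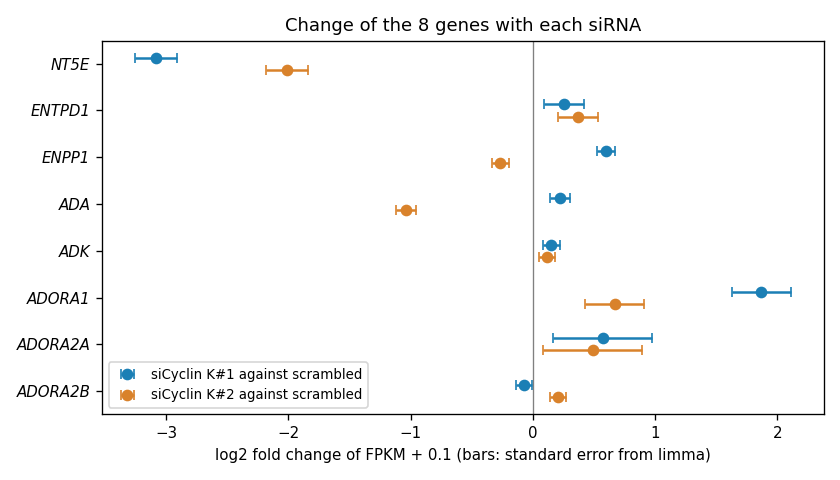
Log2 fold change of FPKM + 0.1 (horizontal axis) of the 8 genes under siCyclin K#1 and siCyclin K#2 against the same scrambled libraries. Points are estimates and bars their standard error from limma. NT5E lies at -3.09 and -2.01, while ENPP1 and ADA lie on opposite sides of 0 for the siRNAs.

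The order of levels within each group changed accordingly. FPKM is scaled to gene length, so the genes can be ranked. In scrambled cells NT5E came first, followed by ADORA2B and ADK, whose ranges overlapped, then ADA, then ENPP1 and ADORA2A, which overlapped, then ENTPD1 and last ADORA1. Under siCyclin K#1 the order was ADK, ADORA2B and ADA, then NT5E, ENPP1 and ADORA2A with overlapping neighbours, and last ENTPD1 and ADORA1, which overlapped. Under siCyclin K#2 ADORA2B and ADK came first with overlapping ranges, followed by NT5E, then by ADA, ADORA2A and ENPP1 with overlapping neighbours, and then by ENTPD1 and ADORA1.

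An siRNA can also act on transcripts that match its seed. The letters that match the seed of each guide strand, taken from the stated target sequences, are GTGATAA for siCyclin K#1 and TACAGGT for siCyclin K#2. They were searched on the sense strand of the longest annotated 3′ UTR of each gene in GENCODE 29. Neither was found in any of the 8 genes, whose 3′ UTRs were 312 (ADA) to 4644 (ENPP1) nucleotides long and 1787 for NT5E. Over all 12970 genes with such a UTR, GTGATAA was found in 10.5% and TACAGGT in 13.3%.

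The tested genes listed around NT5E were lower to differing extents or did not pass the test. Within 1 Mb of its start there were 7 other reference genes, of which 5 were tested. SNHG5, a host gene of small nucleolar RNAs on the minus strand, spans 211.4 to 229.2 kb after the NT5E start. Its FPKM was 48.1, 50.4 and 47.4 in scrambled libraries. It was at 24.5, 23.9 and 25.9 under siCyclin K#1, and 26.5, 26.2 and 25.3 under siCyclin K#2. Both siRNA groups were below every scrambled library and overlapped each other. SNHG5 fell by 0.97 under siCyclin K#1 and by 0.90 under siCyclin K#2 on the log2 scale (SE 0.04 each, limma, adjusted p = 3.21e-07 and 9.93e-07), and the siRNAs differed by -0.07 (SE 0.04, limma, adjusted p = 0.257).

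SYNCRIP, an RNA-binding protein gene at 158.2 to 194.2 kb, fell far less, from 25.4 ± 0.761 FPKM to 21.99 ± 0.471 and 23.2 ± 0.212 (SD, n = 3). Its log2 fold changes were -0.21 and -0.13 (SE 0.03 each, limma, adjusted p = 0.0011 and 0.0178). TBX18, a T-box transcription factor gene, spans -762.2 to -685.1 kb from the NT5E start. It was at 6.81 ± 0.157, 7.41 ± 0.399 and 6.88 ± 0.102 FPKM (SD, n = 3), with log2 fold changes of 0.12 and 0.01 (SE 0.05 each, limma, adjusted p = 0.0982 and 0.871). TBX18-AS1 and AL590143.1, both near TBX18, had at most 17 and 2 reads in any library and did not pass the test. AL589666.2, which lies 48.9 to 49.5 kb after the NT5E start, had 4, 5 and 1 reads in scrambled libraries and 1 read in all siCyclin K libraries together, and was not tested. PKMP3, a pseudogene, was not tested either.

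**Figure D3:**
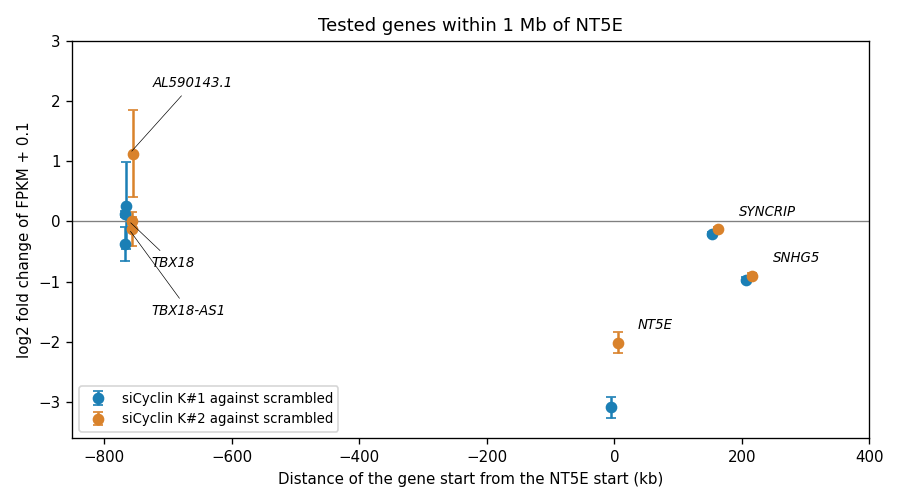
Log2 fold change of FPKM + 0.1 (vertical axis) of NT5E and of the 5 other tested genes within 1 Mb, by the distance of their lowest coordinate from that of NT5E in kb (horizontal axis). Bars are standard errors from limma, and the points of the siRNAs are offset by 5 kb to each side. NT5E and SNHG5 are low with both siRNAs, and SYNCRIP and TBX18 lie near 0.

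The genes whose pattern over the 9 libraries was most like that of NT5E were chosen by the root mean square difference of their centred log2 values, among 11242 other genes whose mean FPKM was 1 or more. They were DCP2, the catalytic subunit of mRNA decapping, at a difference of 0.25 log2 units, AP000648.3, an unnamed locus (0.27), CXCL5, a chemokine that attracts neutrophils (0.36), CCDC85B, a coiled-coil protein gene (0.37), and UCP2, a mitochondrial carrier (0.39). Being picked for likeness, their values are a description, with Pearson correlations to NT5E of 0.960 to 0.987 over 9 libraries that share the same 3 groups.

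CXCL5 was the most abundant of them, at 1387, 1266 and 1315 FPKM in scrambled libraries, 147.3, 174.8 and 162.6 under siCyclin K#1, and 482.9, 637.2 and 558.9 under siCyclin K#2. DCP2 was at 9.23, 9.94 and 9.42 FPKM, then 0.959, 1.46 and 0.936, and then 2.90, 3.39 and 2.75. CCDC85B ran from 85.0 to 89.7 FPKM in scrambled libraries, 13.2 to 17.8 under siCyclin K#1 and 29.8 to 42.6 under siCyclin K#2. In each of these the siCyclin K#1 libraries were lowest and the siCyclin K#2 libraries between, as for NT5E. UCP2 was at 12.2 to 13.7, 2.09 to 2.35 and 2.69 to 2.95 FPKM, with a smaller gap between the siRNAs.

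**Figure D4:**
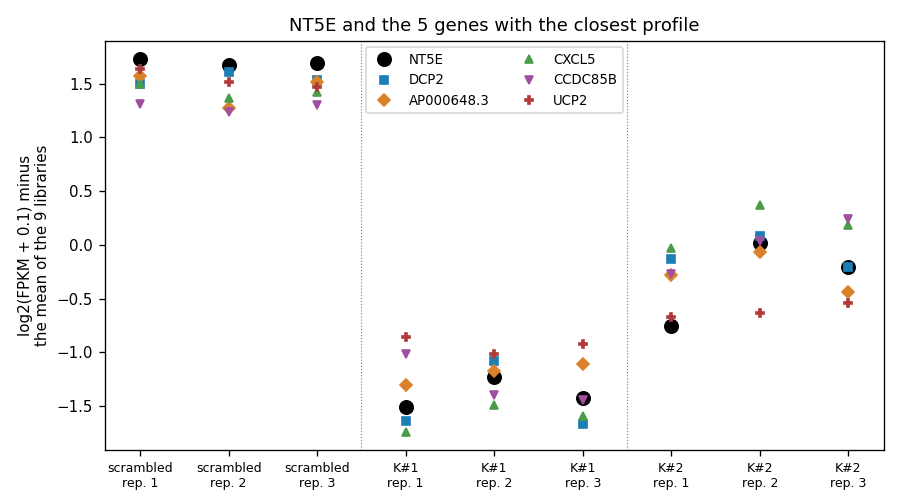
Log2(FPKM + 0.1) minus its mean over the 9 libraries (vertical axis) for NT5E and the 5 genes with the closest pattern, library by library (horizontal axis). All 6 genes are highest in the 3 scrambled libraries and lowest under siCyclin K#1, and UCP2 shows the smallest step between the siRNAs.

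The wider pathway was described by 11 lists of 114 genes apart from the 8, of which 103 were in the files and 80 were tested. For both siRNAs together 25 of the 80 rose and 6 fell (limma, adjusted p under 0.05), 38.8% against 28.6% of all genes, with a median log2 fold change of 0.26 against 0.06. A total of 42 rose and 11 fell under siCyclin K#1, 66.2% against 44.8%, with a median of 0.40 against 0.10. Under siCyclin K#2 25 rose and 10 fell, 43.8% against 34.9%, with a median of 0.20 against 0.01. At a fold change over 3, 0 of the 80 passed for both siRNAs together (2.29% of all genes), 2 under siCyclin K#1 (4.67%) and 1 under siCyclin K#2 (1.94%), all higher and below the share of all genes. The siRNA comparisons share the 3 scrambled libraries. The lists were chosen with earlier results of these data known, so their counts, here and below, are a description.

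Single enzymes that handle AMP and other nucleotides inside the cell changed in both directions. Of 6 tested cytosolic and mitochondrial nucleotidases, 1 rose over both siRNAs (28.6% of all genes called), 3 rose and 1 fell under siCyclin K#1 (44.8%), and 1 rose under siCyclin K#2 (34.9%). The gene that rose over both siRNAs was NT5M, the mitochondrial deoxyribonucleotidase, from 1.55 ± 0.268 FPKM to 2.93 ± 0.425 and 2.18 ± 0.317 (SD, n = 3), a log2 fold change of 0.68 (SE 0.18, limma, adjusted p = 0.019). Of 4 intracellular nucleoside triphosphate diphosphohydrolases none passed for both siRNAs together, where 28.6% of all genes did. An unadjusted p under 0.05 by limma, which at least that share of all genes had, was found for 2. They were ENTPD6 and ENTPD7, named like ENTPD4 after their values were seen. By the adjusted p 1 of the 4 rose under siCyclin K#1 (ENTPD6), where 44.8% of all genes were called. Under siCyclin K#2, where 34.9% were, 2 rose (ENTPD4 and ENTPD6) and 1 fell (ENTPD7, on a feature joined with CUTC). In the list of AMP conversion and purine salvage, AMPD3, an AMP deaminase, fell from 6.59, 7.01 and 4.63 FPKM to 1.82, 2.19 and 1.89 under siCyclin K#1 and 1.71, 2.66 and 2.80 under siCyclin K#2, a log2 fold change of -1.44 (SE 0.19, limma, adjusted p = 0.000395). AMPD2, another AMP deaminase, rose by 0.31 (adjusted p = 0.00539 by limma). Of 14 tested genes of AMP conversion and purine salvage, 1 rose and 2 fell over both siRNAs, 21.4% against 28.6% of all genes. The counts were 3 higher and 3 lower under siCyclin K#1 (42.9% against 44.8%). With siCyclin K#2 they were 1 higher and 4 lower (35.7% against 34.9%).

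A further 6 tested genes stood in the same list as ADA and ADK, as enzymes and partners around adenosine that do not all remove it. Of these 2 rose over both siRNAs, near the 28.6% of all genes called. The counts were 4 higher and 2 lower under siCyclin K#1, where 44.8% of all genes were called, and 2 higher and 1 lower under siCyclin K#2, where 34.9% were. The genes that rose over both siRNAs were AHCY, which splits S-adenosylhomocysteine and so releases adenosine, and its homologue AHCYL1. AHCYL1 rose from 23.1 ± 3.75 FPKM to 35.7 ± 2.06 and 30.3 ± 2.65 (SD, n = 3), by 0.51 on the log2 scale (SE 0.12, limma, adjusted p = 0.0105). AHCY, on a feature joined with AL035458.2, rose by 0.39 (adjusted p = 0.000453 by limma). PNP, which splits inosine after ADA has made it, was at 33.4, 34.3 and 33.5 FPKM in scrambled libraries, 18.8, 19.5 and 19.8 under siCyclin K#1, and 30.5, 31.5 and 31.9 under siCyclin K#2. PNP fell by 0.80 under siCyclin K#1 and by 0.11 under siCyclin K#2 (SE 0.03 each, limma, adjusted p = 3.2e-07 and 0.0407), and the siRNAs differed by -0.69 (adjusted p = 2.39e-06 by limma). ADA and PNP, successive enzymes of a pathway, were thus each low mainly with a different siRNA.

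DPP4, the surface protein to which ADA binds, was at 1.22 ± 0.0914, 0.636 ± 0.0385 and 1.07 ± 0.0687 FPKM (SD, n = 3). It fell under siCyclin K#1 by 0.85 (SE 0.11, limma, adjusted p = 0.000244), and the siRNAs differed by -0.67 (SE 0.11, limma, adjusted p = 0.0019). AHCYL2 rose by 0.95 and ADAL, a deaminase of methylated AMP, by 0.50 under siCyclin K#1 (limma, adjusted p = 0.0104 and 0.028). ADA2, the secreted deaminase, had group means of at most 0.0378 FPKM and was not tested.

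Transport, release and sensing of nucleotides made up the next lists. Over both siRNAs together, where 28.6% of all genes were called, 2 of 5 tested nucleoside transporters rose, SLC29A4 by 0.54 (SE 0.09, limma, adjusted p = 0.00126) and SLC29A1, the main equilibrative carrier of adenosine, by 0.20 (adjusted p = 0.0348 by limma), from 12.99 FPKM to 15.04 and 14.9. Of 5 tested genes of ATP release 1 rose, LRRC8A, a subunit of volume-regulated anion channels, by 0.73 (SE 0.12, limma, adjusted p = 0.00135). Of 8 tested nucleotide receptors 2 fell. For siCyclin K#1, where 44.8% of all genes were called, 3 of 5 genes of ATP release rose, and 1 nucleotide receptor rose and 3 fell. For siCyclin K#2, where 34.9% were called, 1 of the former rose and 2 of the latter fell. The transporters had 2 higher and none lower with each siRNA. The receptors that fell over both siRNAs were P2RY11, an ATP receptor whose feature is joined with PPAN, by 0.46 (adjusted p = 0.0126 by limma), and P2RY1, an ADP receptor named after its value was seen, from a mean of 1.20 FPKM to 0.347 and 0.518, by 1.303 (adjusted p = 0.000576 by limma).

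Genes of cyclic AMP signalling, the pathway on which adenosine receptors act, were called higher more often than lower. This too is a description of lists chosen with earlier results known. Of 21 tested genes for receptor G proteins, adenylyl cyclases, protein kinase A, its target CREB1 and phosphodiesterase 4, 12 rose and 1 fell over both siRNAs (61.9%, against 28.6% of all genes), with a median log2 fold change of 0.68. Under siCyclin K#1 18 rose and 1 fell (median 0.88, against 44.8% of all genes called), and under siCyclin K#2 10 rose and 1 fell (median 0.47, against 34.9%). The 18 include PDE4C, on a feature joined with AC008397.1 and AC008397.2, which reached 0.1 FPKM only under siCyclin K#1. It was tested only through that group, so its call, also within the wider pathway count, is a description. PRKAR1B, a regulatory subunit of protein kinase A, rose from 1.85, 1.98 and 1.91 FPKM to 5.17, 4.88 and 4.70 under siCyclin K#1 and 5.38, 5.47 and 5.02 under siCyclin K#2, by 1.37 (SE 0.08, limma, adjusted p = 3.16e-06). ADCY9, an adenylyl cyclase, rose by 1.36 (SE 0.12, limma, adjusted p = 4.23e-05) and GNA11, a G protein alpha subunit of the Gq family, by 1.117 (SE 0.15, limma, adjusted p = 0.0004). PRKACB, a catalytic subunit of protein kinase A, fell by 0.61 (SE 0.12, limma, adjusted p = 0.00422).

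Of 10 tested genes that cyclic AMP is known to induce in other cells, 6 rose and 1 fell over both siRNAs, where 28.6% of all genes were called, with a median log2 fold change of 0.93. Under siCyclin K#1 7 rose and 1 fell (median 1.22, against 44.8% of all genes called), and under siCyclin K#2 6 rose and 1 fell (median 0.65, against 34.9%). AREG, the growth factor amphiregulin, was at 4.31, 3.71 and 4.28 FPKM in scrambled libraries, 12.6, 10.6 and 11.8 under siCyclin K#1, and 11.2, 14.01 and 13.4 under siCyclin K#2, a rise of 1.55 (SE 0.10, limma, adjusted p = 6.77e-06). SIK1, a kinase that restrains CREB coactivators, rose by 1.18 (SE 0.22, limma, adjusted p = 0.00291) and DUSP1, a phosphatase of MAP kinases, by 0.85 (SE 0.07, limma, adjusted p = 3.25e-05). RGS2, which ends signalling by G proteins, fell by 0.85 (SE 0.23, limma, adjusted p = 0.0217). Several of these genes also answer growth factors and stress, and cyclic AMP was not measured.

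**Figure D5:**
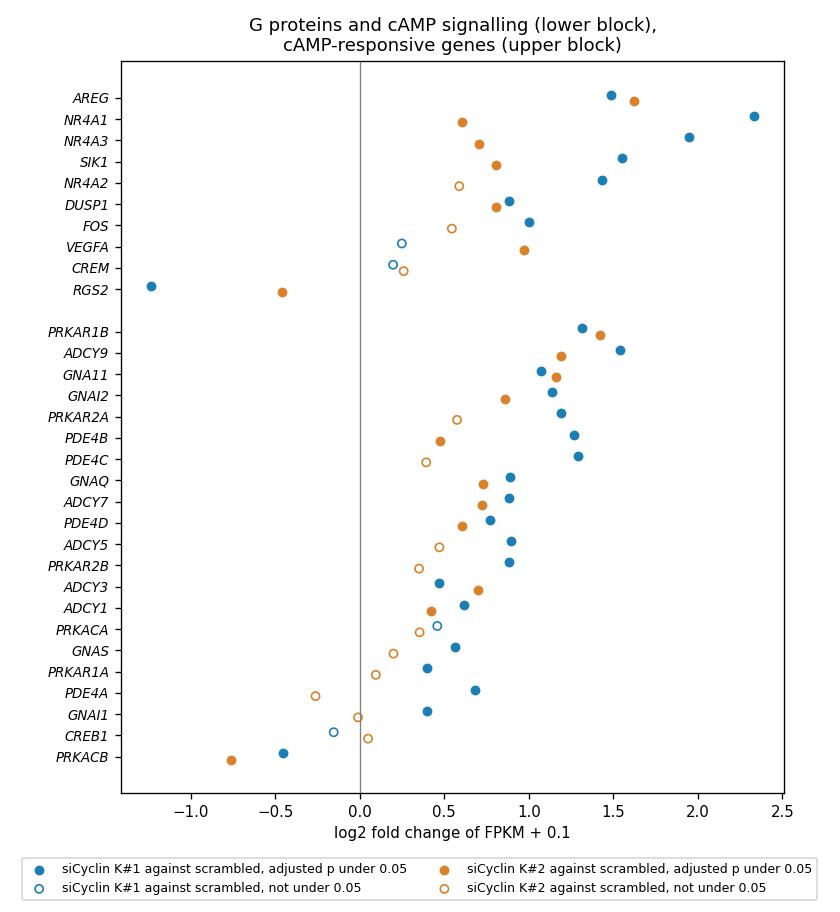
Log2 fold change of FPKM + 0.1 (horizontal axis) of the 21 tested genes of G proteins and cyclic AMP signalling (lower block) and the 10 tested cyclic AMP-responsive genes (upper block) under siCyclin K#1 and siCyclin K#2. Filled points have an adjusted p under 0.05 by limma and open points do not. Most points lie to the right of 0, with PRKACB and RGS2 filled on the left for both siRNAs.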

How the data were processed

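A549 cells were transfected with scrambled siRNA, siCyclin K#1 or siCyclin K#2. The 9 libraries, made from total RNA, were sequenced with paired-end reads on an Illumina HiSeq X system. The authors deposited FPKM per feature, made with StringTie 1.3.3b per the submitters' notes. The aligner and annotation release are not given in the sources used here.

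Rows naming one reference gene were added up, and features without a reference gene (25125 of 56252) were left out. Of 33058 gene identifiers, 32477 had the coordinates of GENCODE 29 (GRCh38). Log2(FPKM + 0.1) of the 21048 genes that reached an FPKM of 0.1 in 3 or more libraries was fitted with limma 3.58.1 in R 4.3.3 (eBayes with trend), with Benjamini-Hochberg adjustment over all of them. Both siRNAs together were fitted as 2 groups, and each siRNA as 1 of 3 groups sharing an estimate of the spread. The fit was tested on simulated data, with no result of that given here. Given the exon lengths of GENCODE 29, 84.36% of the nonzero values of 27799 features were whole reads within 0.1, which gave the depth and the reads quoted.

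The genes named were the 8 genes and CCNK, up to 3 risers and 3 fallers by limma with a mean FPKM of at least 1 from each list, all genes of the hydrolase, removal and receptor lists, the genes within 1 Mb of NT5E, and the 5 genes nearest to its pattern. Of these, 1 is not reported here. Members and lists were chosen with earlier results of these data known. The alternatives were other pseudocounts, filters, scalings and thresholds, eBayes without trend, a replicate block, limma-voom on recovered reads, and leaving out each library. Leaving out joined features was added after the data were seen. Replicates were not duplicates (chi-square of 8.52 to 11.06 per degree of freedom).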

Additional observations from a re-analysis of the deposited data

Results flagged for a closer look

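Several of the genes named differed between the siRNAs by the limma test of the difference itself (adjusted p under 0.05), given here as log2 values under siCyclin K#1 minus those under siCyclin K#2. Among the 8 genes these were NT5E (-1.08), ENPP1 (0.86), ADA (1.26), ADORA1 (1.20) and ADORA2B (-0.28). The values of NT5E and ADORA1 are a description. NT5E was picked for its fall in these libraries, and ADORA1 was tested only because it was high under siCyclin K#1. Among the other genes listed with ADA and ADK they were PNP (-0.69), DPP4 (-0.67), AHCYL2 (0.99) and AHCY (0.11). LRRC8A differed by -0.33, ADCY9 by 0.35, PRKACB by 0.30, SIK1 by 0.75 and RGS2 by -0.77. For the genes picked for a pattern like that of NT5E the difference between the siRNAs is part of what chose them, so it is a description and not a test. The values were -1.38 for DCP2, -0.94 for AP000648.3, -1.79 for CXCL5, -1.29 for CCDC85B and -0.32 for UCP2. The cell line markers NQO1 (0.19) and AKR1B10 (-0.40, on a feature joined with AKR1B15) differed as well. Other genes of the lists also differed, among them LUM (2.48), COL1A1 (2.10), ITGAM (1.32) and CDH1 (1.15). AKR1C1 (-0.49), P2RY1 (-0.47), VIM (0.35) and KRT18 (-0.29) were among them too. KRT8 and PDGFRA did not pass. CCNK did not pass this test.

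In the 6 siCyclin K libraries 1 library stood apart from the rest for 4 genes, by the gap to its neighbour relative to the whole range. These were ENTPD1, where siCyclin K#1 replicate 3 was at 0.283 FPKM, and ENTPD3 (0.0551 FPKM), ALPI (0.0231 FPKM) and AL589666.2 (0.0516 FPKM), where the library that stood apart was the highest of the 6. Chance flags about 1 in 20 groups of continuous values, which would be 2.9 of the 58 genes named. ALPI and AL589666.2 were at 0 in the other siCyclin K libraries, so any read in 1 library flags them and that rate does not hold. The rate also takes the 6 libraries as 1 group, although they hold both siRNAs.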

How the results depend on the processing

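NT5E kept its direction in every comparison, in each alternative that held it. This is a description, because NT5E was picked for its fall in these libraries. It was absent from limma-voom, as were ENTPD1, ENPP1, ADK and ADORA2A, because their values were not whole reads. The number of genes called of the 7 for both siRNAs, 1 in the main analysis, was 0 with a pseudocount of 0.5 or 1, with a mean FPKM of at least 1 (5 genes tested) and with a fold change over 3, and 2 without the trend or with the mean of 2 coefficients, and 0 to 1 over the libraries left out. Under siCyclin K#1 it was 2, but 3 with median-ratio rescaling or a replicate block, 2 to 3 over the libraries left out, and 1 with a fold change over 3. For siCyclin K#2 it was 3, but 4 without the trend or with a pseudocount of 0.01, 2 with median-ratio rescaling or a replicate block, 2 of 3 with limma-voom, 0 with a fold change over 3, and 1 to 3 over the libraries left out. Quantile normalization kept the count at 3 with ADORA1 called and ADORA2B not. Between the siRNAs 5 of 8 became 3 of 3 with limma-voom and 0 with a fold change over 3. Of 80 pathway genes 31, 53, 35 and 35 were called for both siRNAs, siCyclin K#1, siCyclin K#2 and the difference. Limma-voom called 12, 25, 14 and 15 of the 40 genes it held, a fold change over 3 called 0, 2, 1 and 1, and the mean of 2 coefficients called 51 for both siRNAs. Leaving out the joined features, added after the data were seen, gave 29, 46, 32 and 28.

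Values that changed sign were those of ADORA2B for both siRNAs (-0.0161 with median-ratio rescaling, -0.0497 with limma-voom), ADK between the siRNAs (-0.033 with median-ratio rescaling, -0.0148 without siCyclin K#1 replicate 3, in a range of -0.0148 to 0.0941 over the libraries left out) and ADORA2A between the siRNAs (-0.234 without siCyclin K#1 replicate 3, -0.2854 without siCyclin K#2 replicate 2, in a range of -0.2854 to 0.4679). None of these was called in the main analysis, and the cause was not tested. ADORA2B was called lower under siCyclin K#1 under median-ratio rescaling (-0.19, adjusted p = 0.0479 by limma). ADA was called lower for both siRNAs as the mean of 2 coefficients (adjusted p = 0.00153 by limma), which leaves the difference between the siRNAs out of the spread.

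Replicate numbers did not pair the libraries (correlations of same-numbered deviations -0.0711 to 0.0379 over 9 pairs and 11243 genes). With a replicate block 0 of the 7 genes were called for both siRNAs, and ADA was called higher under siCyclin K#1 (adjusted p = 0.0284 by limma).

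Quantile normalization moved the median of all genes under siCyclin K#1 from 0.10 to -0.02 on the log2 scale, so small rises with that siRNA depend on the scaling. With 3 libraries a group, changes within the spread of ADORA2A could not be detected, and depth limits ADORA1 and the untested hydrolases.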

Other observations

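Markers of other cells were summed in each library, as values with no explanation. The stromal list summed to 5.94, 6.61 and 6.07 FPKM in scrambled libraries, 20.1, 22.3 and 21.5 under siCyclin K#1, and 7.91, 8.01 and 7.89 under siCyclin K#2. All 9 genes of the list were in the files and 5 were tested, of which 3 rose under siCyclin K#1 (44.8% of all genes called) and 2 under siCyclin K#2 (34.9%), with none lower (limma, adjusted p under 0.05). COL1A1, a fibrillar collagen, had group means of 2.03, 14.01 and 3.19 FPKM and was the most abundant gene of the list averaged over all 9 libraries, which rests on siCyclin K#1. PDGFRA, a growth factor receptor, was above it in the other groups, with means of 3.52, 4.64 and 4.22 FPKM, and rose over both siRNAs by 0.32 on the log2 scale (SE 0.08, limma, adjusted p = 0.0151). LUM, the proteoglycan lumican, had means of 0.356, 2.28 and 0.318 FPKM and rose under siCyclin K#1 by 2.36 (SE 0.20, limma, adjusted p = 1.81e-05). DCN, the proteoglycan decorin, had means of 0.0223, 0.0791 and 0.0144 FPKM and was not tested. ENG and PDGFRB had means of at most 0.154 FPKM and did not pass the test, and THY1, COL1A2 and COL3A1 had means of at most 0.0208 FPKM. The erythroid list summed to at most 0.143 FPKM in scrambled libraries, 0.875 to 2.05 under siCyclin K#1 and at most 0.355 under siCyclin K#2, mostly from HBA2, an alpha globin gene. The leukocyte list summed to 31.5 to 40.6 FPKM, mostly from CD68, a lysosomal protein with a mean of 33.5 FPKM, and PTPRC was at or near 0. Of 3 tested genes 1 rose and 1 fell under siCyclin K#1 (44.8% of all genes called), and 1 rose under siCyclin K#2 (34.9%). The last was CD68, from 30.3 to 37.9 FPKM (log2 fold change 0.32, limma, adjusted p = 0.000238). Of the low members, named after their values were seen, ITGAM, an integrin of myeloid cells, rose under siCyclin K#1 from 0.801 to 2.23 FPKM (log2 fold change 1.36, limma, adjusted p = 0.000286), and CD14, a receptor of monocytes, fell from 0.909 to 0.582 FPKM (-0.56, adjusted p = 0.0359 by limma). LYZ was at or near 0.

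Of 9 genes taken as markers of the cell line 7 were tested. Over both siRNAs 2 rose and 1 fell (28.6% of all genes called), and with each siRNA 3 rose and 2 fell (44.8% and 34.9%). KRT8, a keratin, rose from 55.3 ± 8.78 FPKM to 94.9 ± 12.7 and 97.4 ± 3.74 (SD, n = 3), by 0.80 on the log2 scale (SE 0.11, limma, adjusted p = 0.000384). NQO1 rose by 0.57 (SE 0.07, limma, adjusted p = 0.000183). AKR1B10, a reductase on a feature joined with AKR1B15, fell by 1.01 (SE 0.13, limma, adjusted p = 0.00029), from 326.7 FPKM to 142.0 and 186.8. The other calls, named after their values were seen, were with 1 siRNA each. CDH1, the epithelial cadherin, rose by 1.17 and KRT18 fell by 0.17 under siCyclin K#1 (limma, adjusted p = 0.00428 and 0.00905). AKR1C1, another reductase, rose by 0.37 and VIM fell by 0.38 under siCyclin K#2 (limma, adjusted p = 0.00555 and 2.05e-05).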
